A study of Chlorella sp. with 12 samples.

Results

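The fatty acid synthesis machinery of *Chlorella* sp. TLD6B was taken as all unigenes, the clusters of assembled transcripts, to which the annotation assigns 1 of 13 KEGG orthology (KO) IDs. The list holds accC (K01961), accB (K02160), accA (K01962) and accD (K01963), the 4 subunits of the heteromeric acetyl-CoA carboxylase. It also holds ACACA (K11262), the multidomain acetyl-CoA carboxylase that carries the same reactions on 1 chain. It continues with the malonyl-CoA:ACP transacylase fabD (K00645), the condensing enzymes fabH (K00648), fabB (K00647) and fabF (K09458), the reductases fabG (K00059) and fabI (K00208), the dehydratase fabZ (K02372) and the acyl-ACP thioesterase FATA (K10782). The rule used no expression value. It found 215 of 155503 unigenes, which carry 11 of the 13 KO IDs. The IDs of accB, the biotin carboxyl carrier protein, and of fabB, 3-oxoacyl-ACP synthase I, were carried by no unigene.

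*Chlorella* sp. TLD6B is a unicellular green alga isolated from soil of the Taklimakan Desert, and all cultures grew in BBM, a mineral medium, in a light-dark cycle. RNA was sequenced from 6 groups with 2 libraries each, which gives 12 libraries of this 1 strain. CK0 is the untreated culture on day 0 and CK18 the untreated culture on day 18. The treated cultures were also taken on day 18: Nacl1 with 0.1 M and Nacl2 with 0.8 M NaCl added, PEG1 with 0.05 g/mL and PEG2 with 0.1 g/mL PEG-6000, a polymer that lowers the water potential of the medium. The study calls the 2 libraries of a group biological replicates, without saying whether they came from separate flasks, and the p-values measure the spread between these libraries.

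In plants and green algae, fatty acids are made in the chloroplast by separate enzymes, each encoded by its own gene. Acetyl-CoA carboxylase makes malonyl-CoA, fabD moves the malonyl group to acyl carrier protein (ACP), fabH starts the chain, and the other condensing enzymes lengthen it in rounds closed by fabG, fabZ and fabI. FATA releases the finished acyl chain from ACP. Mitochondria hold a small pathway of the same type, which supplies the octanoyl chain for lipoic acid.

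The values are FPKM, which count fragments per length of the unigene and per size of the library, so levels can be compared between genes. For each KO ID the FPKM of its unigenes were summed and divided by a library factor, the median ratio of the KO sums to their geometric mean, which ranged from 0.691 to 1.49. The deposited tables give no reads per unigene, so the depth behind a single value is unknown. Groups were compared with limma on log2 values over 3073 to 3205 KO IDs, and a sum was called where its log2 fold change reached 1 in either direction and the p, adjusted after Benjamini and Hochberg, was under 0.05. The correlation of the 2 libraries of a group over KO sums was lowest in PEG2, at 0.967, and 0.981 to 0.990 in the other groups. Single unigenes were scaled by their own library factors, 0.805 to 1.38, so their values do not add up to the KO sums. RNA was taken from whole cultures, in which a change in a few cells and a change in all cells cannot be told apart.

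By SwissProt name, the word plastid in the name of the machinery holds for part of the members. The SwissProt name says chloroplastic for 57 unigenes, mitochondrial for 23 and neither for 135, among them bacterial entries and, in fabG, other short-chain dehydrogenases. Of the 215 unigenes, 136 have their best NR hit in a green alga, and these held 95.2% to 99.6% of the member FPKM in each library. The remaining 79 hit other genera, among them 16 with an oomycete hit. The SwissProt names do not establish location, as unigenes with the same best NR protein can differ in them. The accA unigenes Cluster-31803.80128 and Cluster-31803.80130 share that protein, and only the former is named chloroplastic. Only 32 unigenes had a mean FPKM of at least 1, and 16 were listed at 0 in all libraries. Markers of the green alga were high: the sum of rbcS, the small subunit of Rubisco, ranged from 15548 to 150178. The bacterial replication markers dnaA, dnaE and dnaN had no unigene. This cannot show whether bacterial RNA was present, because it depends on how the unigenes were annotated.

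The 215 unigenes held 0.0102% to 0.0345% of all FPKM. Among the 11 KO sums, accA, the alpha subunit of the carboxyltransferase, had the highest share of the machinery in 11 of the 12 libraries, with 31.7% to 52.9% on day 18 and 22.2% and 25.6% in CK0. In CK0 the share of fabZ was 24.5% and 25.4%, against 3.002% to 11.1% on day 18. The share of fabI was 0.426% and 0.303% in CK0 and 7.09% to 13.4% on day 18. The smallest sum was accD in every library.

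**Figure D1:**
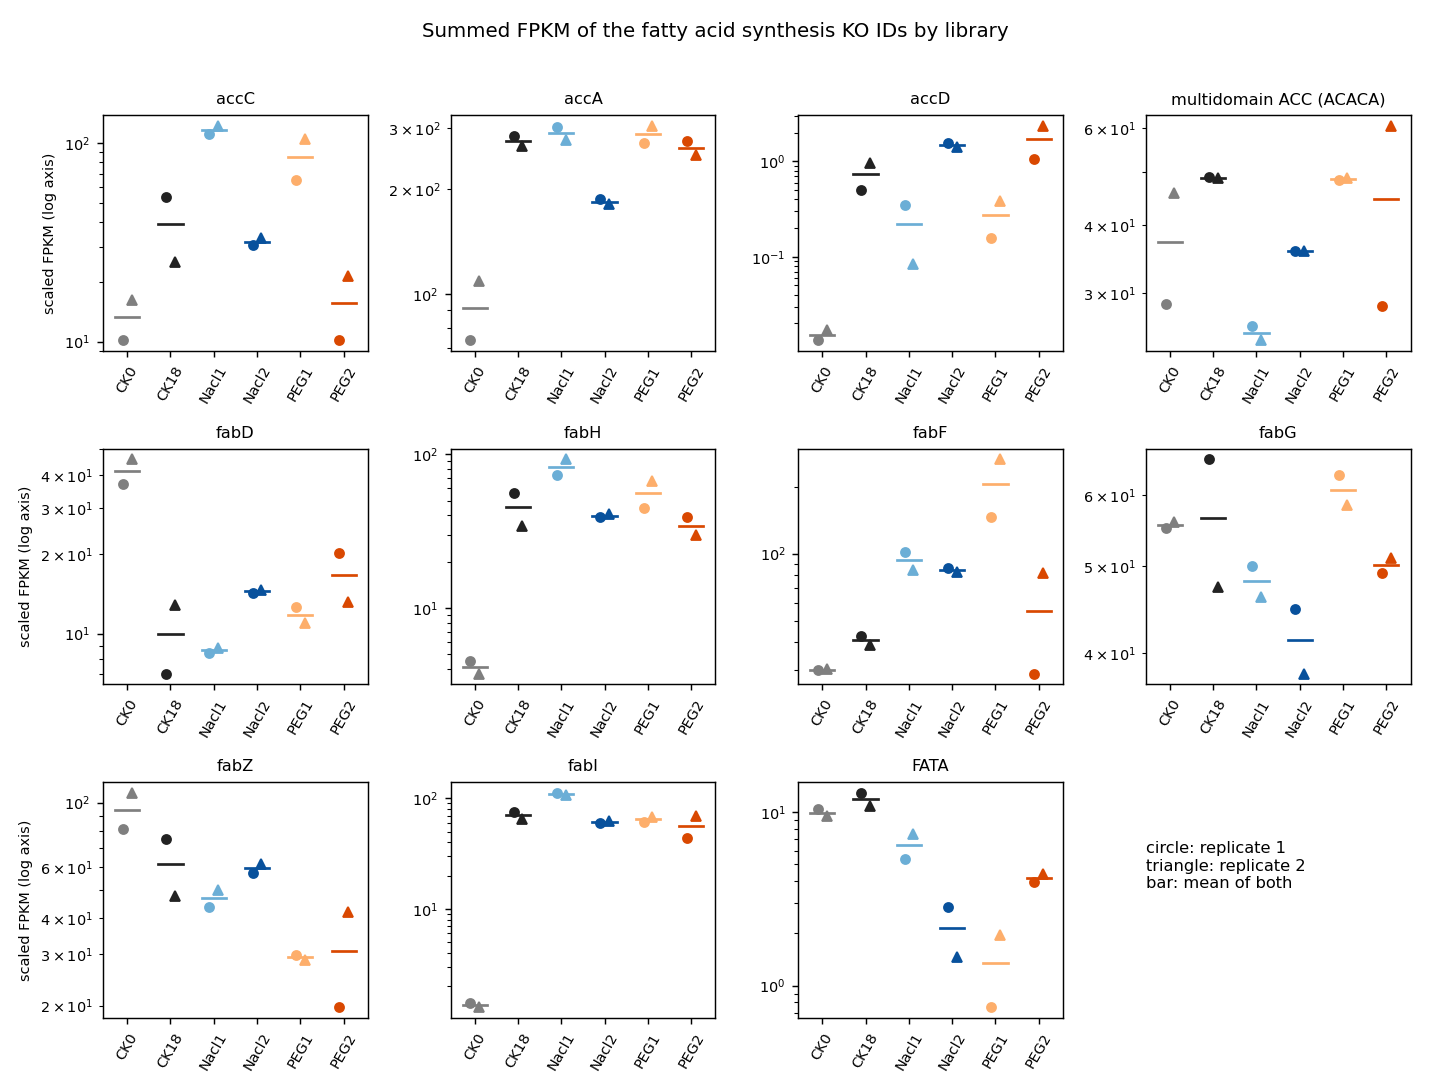
Summed FPKM of each KO ID, divided by the library factor, on log axes, for the 12 libraries (circles, replicate 1; triangles, replicate 2; bars, group means). The fabI and fabH sums of CK0 lie below those of all 10 day-18 libraries, the fabD sums of CK0 lie above them, and the highest fabF sums are those of PEG1.

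The difference in culture age came with the highest number of calls. In CK18 vs. CK0, limma called 5 of the 11 KO sums up and 1 down, which is 54.5% of them, against 50.6% of all 3073 KO sums tested, so the share of members was near the background (25.7% of all KO sums up and 24.9% down). The 5 were fabI, fabH, accD, accA and accC, with accD at a sum of at most 0.97 in these libraries, and the 1 that fell was fabD. With FPKM as deposited the split was 2 up and 2 down, and with quantile normalization 4 up and 2 down, fabZ being the added member that fell. In Nacl1 vs. CK18 the members called were accC and fabF, both up, which is 2 of 11, and 19.3% of all KO sums were called (10.7% up, 8.63% down); quantile normalization gave 2 up and 2 down. In Nacl2 vs. CK18 they were fabF (up) and FATA (down), against 47.4% of all KO sums (25.4% up, 22% down), and 3 were up and 1 down with FPKM as deposited or the factors of the unigenes. In PEG1 vs. CK18 they were again fabF (up) and FATA (down), and the background was 22.7% (10.6% up, 12.1% down), with 2 up and 1 down for FPKM as deposited.

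In PEG2 vs. CK18 limma called 0 of the 11 sums, with 3 at an unadjusted p under 0.05, and 1.23% of all KO sums were called (0.486% up, 0.746% down). The treatments at both strengths were also compared with each other. In Nacl2 vs. Nacl1, accD was up and accC and FATA were down (background 35.6%, with 19.5% up and 16.1% down). With the factors of the unigenes the split there was 3 up and 1 down, as fabD (1.35, adjusted p = 0.0037) and ACACA (1.11, adjusted p = 4.9e-04) were gained and FATA was lost, and with FPKM as deposited it was 2 up and 2 down. In PEG2 vs. PEG1, accD and FATA were up and accC and fabF were down, which is 36.4% of the members against 13.1% of all KO sums (8.23% up, 4.83% down). That count fell to 0 without either PEG1 library, to 1 without either CK18 library and to 3 without either PEG2 library. None was up with FPKM as deposited (3 down) or with the factors of the unigenes (2 down). In Nacl2 vs. PEG2, fabZ alone was called and was up, against 39.3% of all KO sums (20.4% up, 18.8% down), and quantile normalization gave 1 up and 1 down. The 4 comparisons with CK18 among the treatments share its 2 libraries.

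**Figure D2:**
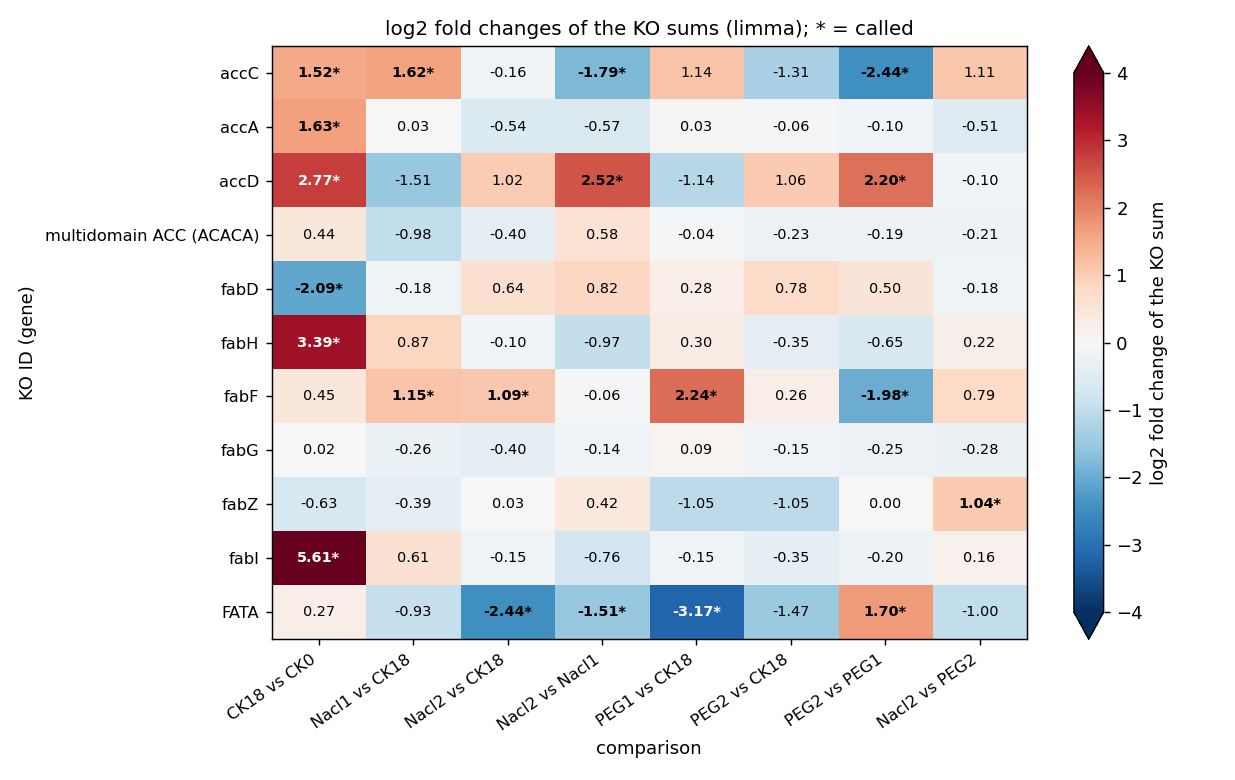
log2 fold changes of the 11 KO sums (vertical axis) in the 8 comparisons (horizontal axis), with values in the cells, bold and an asterisk where limma called the sum. The colour scale ends at 4 in both directions, and the largest value is 5.61 for fabI in CK18 vs. CK0.

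The scaling of Nacl2 decided several signs that were not called. With the factors of the unigenes in place of those of the KO sums, the median log2 fold change of all KO sums in Nacl2 vs. CK18 moved from -0.03 to 0.68. Under it 6 of the 11 members turned from lower to higher (accA, fabG, accC, fabH, ACACA and fabI), and none of these was called under either scaling. The 2 called members kept their direction: fabF had a log2 fold change of 1.82 and FATA of -1.73. Calls were gained for fabD (1.37, adjusted p = 0.0027) and accD (1.68, adjusted p = 0.035). In Nacl2 vs. PEG2 the sign turned for 5 of the 11 (accA, fabD, accD, fabG and ACACA), where the median of all KO sums moved from -0.05 to 0.61. Changes of KO sums in Nacl2 are therefore given relative to all KO sums. Those of single unigenes use the factors of the unigenes, which place Nacl2 higher against CK18. Some of these unigene calls were lost with the factors of the KO sums, as given for each below.

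accC is the biotin carboxylase, the acetyl-CoA carboxylase subunit that loads CO2 on biotin. Its sum was 10.2 and 16.3 in CK0, 53.6 and 25.2 in CK18, 111 and 122 in Nacl1, 30.7 and 33.3 in Nacl2, 65.3 and 105 in PEG1, and 10.2 and 21.3 in PEG2. Both Nacl1 libraries were above all other libraries, and the PEG2 libraries overlapped with CK0. The Nacl1 increase over CK18 was 3.08-fold (log2 1.62 ± 0.31, SE, adjusted p = 0.00507, limma), and it was called in all 16 alternatives. In Nacl2 the sum was lower than in Nacl1 by a log2 difference of -1.79 ± 0.31 (adjusted p = 0.00225). PEG1 lay above CK18 by a log2 difference of 1.14 that was not called (adjusted p = 0.12), and PEG2 below PEG1 by -2.44 ± 0.49, which was called (adjusted p = 0.0214). That last call was lost without PEG1 replicate 1 (-2.76, adjusted p = 0.076) or PEG1 replicate 2 (-2.08, adjusted p = 0.148). The day-18 increase of 1.52 ± 0.38 over CK0 (adjusted p = 0.00354) was lost without CK18 replicate 1 (0.99, adjusted p = 0.0696) and with FPKM as deposited (0.58, adjusted p = 0.177).

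The accC sum came mostly from 11 unigenes with the same best NR protein, which held 77.4% to 99.1% of it. Their share was lowest in CK0 replicate 1 (77.4%) and PEG2 replicate 1 (82.7%). Their leading unigenes were Cluster-31803.101505 and Cluster-31803.98783, both biotin carboxylase 1 of the chloroplast by SwissProt name. Cluster-31803.101505 was listed at 0 in 1 CK0 library and at 2.99 in the other, and reached 67.8 and 67.5 in Nacl1. In the unigene fits, Cluster-31803.98783 rose in Nacl1 by 1.77 ± 0.35 on the log2 scale (adjusted p = 0.0424), from 14.7 and 7.68 in CK18 to 31.7 and 41.7, a call lost in 9 of 15 alternatives, among them each of the 6 libraries of the fit left out. Cluster-31803.101505 had a similar log2 difference of 1.84 that was not called (adjusted p = 0.0752). Another copy, Cluster-31803.100315, was at most 3.56 in any library. It rose in Nacl2 (log2 3.798, adjusted p = 0.0264) and PEG1 (3.88, adjusted p = 0.0406), from 0 and 0.295 in CK18 to 3.56 and 1.97 in Nacl2 and 2.70 and 3.46 in PEG1. The Nacl2 call was lost in 5 of 15 alternatives, among them without CK18 replicate 1 or either Nacl2 library, and the PEG1 call in 11 of 15, among them each of the 6 libraries left out.

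The accA sum, the alpha subunit of the carboxyltransferase that passes the carboxyl group to acetyl-CoA, behaved differently from accC. It was 74.0 and 109 in CK0, 285 and 266 in CK18, 302 and 276 in Nacl1, 187 and 181 in Nacl2, 271 and 304 in PEG1, and 274 and 251 in PEG2. All day-18 libraries were above both CK0 libraries, and Nacl2 was below the other day-18 groups. The rise from CK0 to CK18 was 3.09-fold (log2 1.63 ± 0.28, adjusted p = 2.3e-04, limma). It missed the fold limit with FPKM as deposited (0.68) and with quantile normalization (0.93). The Nacl2 difference from CK18 was -0.54 ± 0.12 (adjusted p = 0.00448), under the fold limit for a call, and its sign turned with the factors of the unigenes (0.19). Cluster-31803.80128 held 38.4% to 62.7% of the sum, and all 9 accA unigenes share 1 best NR protein. The weakly expressed unigene Cluster-31803.29741 was 1.01 and 0 in CK18 and 3.73 and 2.37 in Nacl2 (log2 difference 3.23, adjusted p = 0.19, not called). The ratio of accA to accC was 2.26 and 2.71 in Nacl1, 5.31 and 10.6 in CK18 and 26.9 and 11.8 in PEG2.

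The accD sum, the beta subunit of the same carboxyltransferase, was low throughout: 0.0134 and 0.0170 in CK0, 0.503 and 0.97 in CK18, 0.352 and 0.0848 in Nacl1, 1.56 and 1.40 in Nacl2, 0.158 and 0.384 in PEG1, and 1.06 and 2.36 in PEG2. In *Chlorella vulgaris*, accD is a gene of the chloroplast genome. The 7 accD unigenes are of 2 kinds, 4 with a green algal and 3 with a red algal best hit. In Nacl2 the whole sum came from green algal unigenes, 1.56 and 1.40. In CK18 these gave 0.230 and 0.0579 and in PEG2 0.256 and 0.183, and the red algal ones gave 0.273 and 0.912 in CK18 and 0.807 and 2.18 in PEG2. The leading green algal unigene, Cluster-31803.2942, was 2.17 and 1.36 in Nacl2, not above 0 in either library of CK18 and at most 0.0788 in any library outside Nacl2.

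By sum, accD was higher in Nacl2 than in Nacl1 by 2.52 ± 0.62 on the log2 scale (adjusted p = 0.010, limma), in PEG2 than in PEG1 by 2.20 ± 0.61 (adjusted p = 0.0467) and in CK18 than in CK0 by 2.77 ± 0.95 (adjusted p = 0.0218). Of these the Nacl2 difference was 3.29 with green algal unigenes alone. Without Nacl1 replicate 2 the call for the sum over all accD unigenes was lost (1.86). The PEG2 call was lost in 9 of 14 alternatives, among them each of the 5 left-out libraries CK18 replicate 1, CK18 replicate 2, PEG1 replicate 1, PEG1 replicate 2 and PEG2 replicate 2, with adjusted p from 0.082 to 0.268. The day-18 call was lost with a pseudocount of 1 (0.74, adjusted p = 0.0531) and with FPKM as deposited (2.29, adjusted p = 0.0799). It was tested in only 10 alternatives, where the other sums called with age had 14. Both CK0 sums were below the added 0.1, and red algal unigenes gave more of the CK18 sums than green algal ones. With green algal unigenes alone, accD in Nacl2 was above PEG2 by 2.26, where the sum over all accD unigenes differed by -0.10. Likewise it was above CK18 by 2.71, where the sum over all accD unigenes differed by 1.02 and was not called. In the salt fit and in the fit of all 12 libraries, the green algal sum reached the filter level in Nacl2 alone. The differences with green algal unigenes alone are therefore a description and no test.

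ACACA, the multidomain acetyl-CoA carboxylase that in plants makes malonyl-CoA in the cytosol, differed from the chloroplast subunits. Its sum was 28.7 and 45.8 in CK0, 49.0 and 48.6 in CK18, 26.2 and 24.7 in Nacl1, 35.9 and 35.9 in Nacl2, 48.3 and 48.7 in PEG1, and 28.4 and 60.7 in PEG2. Nacl1 was the lowest group, below both CK18 and Nacl2 without overlap, while PEG2 spanned nearly the whole range. The Nacl1 difference from CK18 was -0.98 ± 0.14 (adjusted p = 0.00163), just under the fold limit, and it passed that limit without CK18 replicate 1, Nacl1 replicate 1 or Nacl2 replicate 2 (-1.04 to -1.001). The ratio of ACACA to accC was 0.235 and 0.201 in Nacl1, 0.915 and 1.93 in CK18, and 2.79 and 2.85 in PEG2. The leading unigene, Cluster-31803.45175, and Cluster-31803.36958, which gave 3.37% to 13.4% of the sum, were both higher in Nacl2 than in Nacl1 (log2 1.08, adjusted p = 0.0354, and 1.297, adjusted p = 0.0292). Cluster-31803.45170 and Cluster-31803.45173, which stand between them in level and were chosen after their values were seen, had log2 differences of 0.90 and 1.53 that were not called (adjusted p = 0.101 and 0.095). The 2 calls were lost in 11 and 10 of 15 alternatives, among them the factors of the KO sums and each Nacl1 and Nacl2 library left out.

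fabD, the transacylase that loads malonyl groups on ACP, fell with age. Its sum was 37.0 and 45.8 in CK0, 7.05 and 12.8 in CK18, 8.47 and 8.80 in Nacl1, 14.3 and 14.6 in Nacl2, 12.6 and 10.99 in PEG1, and 20.2 and 13.2 in PEG2. Every day-18 library was below both CK0 libraries. CK18 was lower than CK0 by -2.09 ± 0.34 on the log2 scale (adjusted p = 1.2e-04, limma), and this call was kept in all 14 alternatives. fabZ was also called down with FPKM as deposited (-1.58, adjusted p = 1.7e-04) and with quantile normalization (-1.12, adjusted p = 0.00701). The SwissProt name is mitochondrial for 13 of the 15 fabD unigenes, and these 13 gave 78.0% to 98.1% of the sum. Cluster-31803.71595, the leading one, was 3.11 and 5.12 in CK18, 4.22 and 3.78 in Nacl1, and 9.52 and 11.4 in Nacl2. In the unigene fit it was higher in Nacl2 than in CK18 (log2 1.41 ± 0.35, adjusted p = 0.0298) and than in Nacl1 (1.40, adjusted p = 0.0428), and the calls were lost in 8 and 10 of 15 alternatives, among them the factors of the KO sums and each Nacl1 and Nacl2 library left out (the former also without CK18 replicate 1). Cluster-31803.43839 fell from 20.8 and 14.6 in CK0 to 1.88 and 3.92 in CK18 (log2 -2.498, adjusted p = 0.0284), which was not called without CK0 replicate 1 or CK18 replicate 1.

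fabH, 3-oxoacyl-ACP synthase III (KAS III), which joins acetyl-CoA to malonyl-ACP and opens each chain, showed the next largest rise with age. Its sum was 4.53 and 3.73 in CK0, 56.2 and 34.0 in CK18, 73.0 and 92.8 in Nacl1, 38.9 and 40.6 in Nacl2, 45.1 and 67.0 in PEG1, and 38.8 and 29.9 in PEG2. The CK0 libraries were far below the rest, and the Nacl1 libraries were the highest. The CK18 level was 10.49-fold that of CK0 (log2 3.39 ± 0.33, adjusted p = 1.7e-06, limma), in all 14 alternatives. Nacl1 exceeded CK18 by 0.87 ± 0.24 (adjusted p = 0.0219), under the fold limit, and Nacl2 was below Nacl1 by -0.97 ± 0.24 (adjusted p = 0.0104). With the factors of the unigenes the difference of Nacl2 from Nacl1 was only -0.43 (adjusted p = 0.1835, limma). Without CK18 replicate 1 the Nacl1 difference was 1.199 (adjusted p = 0.00606) and without Nacl1 replicate 1 it was 1.025 (adjusted p = 0.0463), both past the limit. Without Nacl1 replicate 1 the difference of Nacl2 from Nacl1 also passed it (-1.13, adjusted p = 0.0245). Cluster-31803.11938 and Cluster-31803.104438, the 2 main unigenes, each gave 36.6% to 63.4% of the sum, and both rose from CK0 to CK18 (log2 3.02, adjusted p = 0.021, and 3.45, adjusted p = 0.0141), both lost without CK18 replicate 1.

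fabF, the KO ID of 3-oxoacyl-ACP synthase II (KAS II), was called against CK18 in 3 of the 4 treatments. Its sum was 29.9 and 30.3 in CK0, 42.5 and 39.0 in CK18, 102 and 84.8 in Nacl1, 85.7 and 82.5 in Nacl2, 146 and 265 in PEG1, and 28.9 and 81.5 in PEG2. The 3 groups Nacl1, Nacl2 and PEG1 were above CK18 without overlap, and the PEG2 libraries lay on both sides of it. The sum was 2.22-fold that of CK18 in Nacl1 (log2 1.15 ± 0.15, adjusted p = 0.00104, limma), 2.12-fold in Nacl2 (1.09 ± 0.15, adjusted p = 4.8e-04) and 4.72-fold in PEG1 (2.24 ± 0.49, adjusted p = 0.0158). With all 12 libraries in 1 fit the calls in Nacl1 and Nacl2 were lost (adjusted p = 0.057 and 0.0523), and without Nacl1 replicate 1 the Nacl1 change was 0.998, just under the fold limit. The PEG1 call was lost without CK18 replicate 1 (2.34, adjusted p = 0.0968), CK18 replicate 2 (2.16, adjusted p = 0.0939) or PEG1 replicate 2 (1.80, adjusted p = 0.12). PEG2 was below PEG1 by -1.98 ± 0.49 (adjusted p = 0.0355), a call lost without either CK18 or either PEG1 library (-2.39 to -1.53, adjusted p 0.0812 to 0.235).

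The fabF sum joined enzymes of different kinds. By best NR protein, 13 unigenes led by Cluster-31803.96146 are named chloroplastic KAS I, the enzyme that makes most of the elongation steps. Another 7, led by Cluster-31803.17167, are named chloroplastic KAS II, which takes the chain from palmitoyl- to stearoyl-ACP, and 5, led by Cluster-31803.99112, are named mitochondrial. The KAS I group gave 33.2% and 33.8% of the sum in CK0 and 60.3% to 90.0% on day 18. The mitochondrial group gave 59.8% and 59.7% in CK0 and 5.43% to 31.5% on day 18.

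The 3 kinds moved differently across the conditions. The KAS I group was 9.92 and 10.3 in CK0, 35.7 and 25.1 in CK18, 83.1 and 68.3 in Nacl1, 68.0 and 66.5 in Nacl2, 131 and 238 in PEG1, and 17.4 and 61.2 in PEG2. The KAS II group was 0.886 and 1.36 in CK0, 0.905 and 0.681 in CK18, 11.01 and 10.8 in Nacl1, 5.24 and 4.73 in Nacl2, 4.61 and 11.3 in PEG1, and 0.659 and 1.90 in PEG2. KAS I was thus at its highest in PEG1 and KAS II in Nacl1 and in 1 of the 2 PEG1 libraries. The mitochondrial group was 17.9 and 18.1 in CK0, 4.06 and 6.02 in CK18, 6.35 and 4.71 in Nacl1, 12.3 and 11.2 in Nacl2, 9.35 and 14.4 in PEG1, and 9.08 and 11.8 in PEG2. In it the CK0 libraries were the highest, and both Nacl2 and both PEG groups were above CK18 without overlap.

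**Figure D3:**
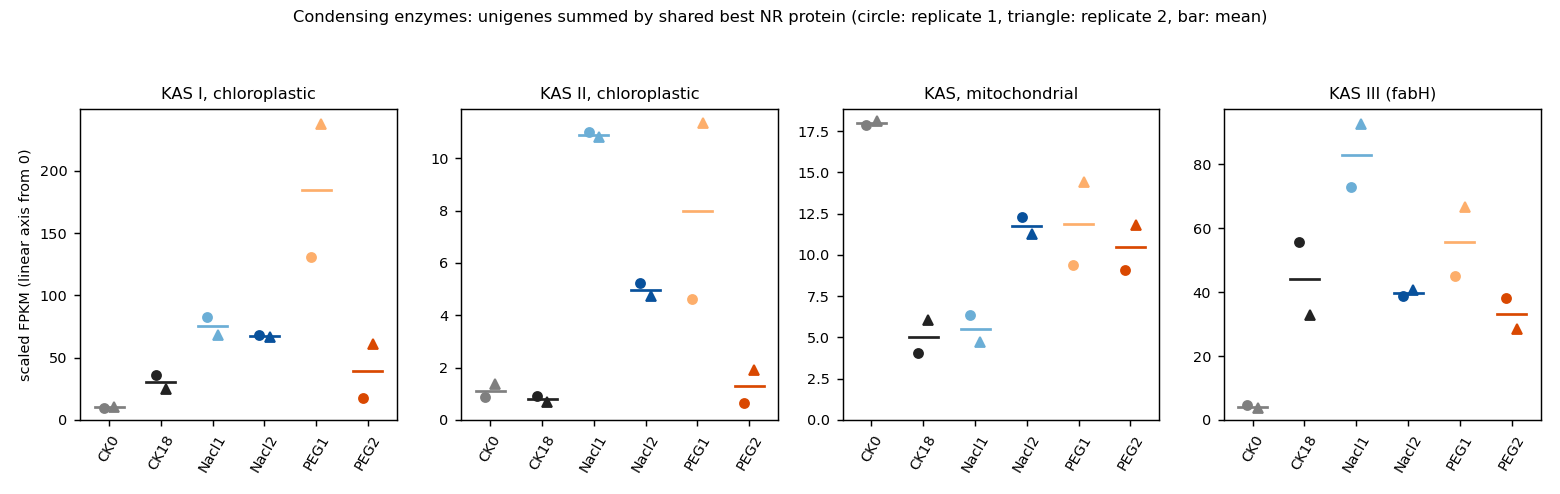
Scaled FPKM of the condensing enzymes, summed over unigenes with the same best NR protein, on linear axes that start at 0 (circles, replicate 1; triangles, replicate 2; bars, group means). The mitochondrial synthase is highest in CK0 (17.9 and 18.1), where chloroplastic KAS I (9.92 and 10.3) and KAS III are lowest.

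The tests of the leading unigenes followed these kinds. Cluster-31803.96146 rose from CK0 to CK18 (log2 1.87 ± 0.38, adjusted p = 0.0322), from CK18 to Nacl1 (1.39 ± 0.27, adjusted p = 0.0399) and from CK18 to Nacl2 (1.89 ± 0.27, adjusted p = 0.00631). The Nacl2 call was kept in all 15 alternatives. The Nacl1 call was lost in 9 of 15, among them each of the 6 libraries left out, and the call with age in 7 of 13, among them without CK0 replicate 2 or either CK18 library. In PEG1 it was 115 and 205 against 30.6 and 19.5 in CK18, and the log2 difference of 2.61 was not called (adjusted p = 0.0649). Cluster-31803.17167 rose in Nacl1 (3.47 ± 0.34, adjusted p = 0.0136) and Nacl2 (2.89 ± 0.34, adjusted p = 0.0043), from 0.783 and 0.484 in CK18 to 7.36 and 8.401 in Nacl1 and 5.44 and 4.71 in Nacl2. The Nacl2 call was kept in all 15 alternatives, and the Nacl1 call was lost in 4, among them without either Nacl1 library or Nacl2 replicate 2. Cluster-31803.99112 fell from CK0 to CK18 (-1.72 ± 0.35, adjusted p = 0.031) and rose in Nacl2 over CK18 (1.81 ± 0.33, adjusted p = 0.0127) and over Nacl1 (1.72 ± 0.33, adjusted p = 0.023), and both Nacl2 calls were lost with the factors of the KO sums and without either Nacl2 library. The difference from CK18 was also lost without CK18 replicate 1, that from Nacl1 without either Nacl1 library, and the fall with age without any 1 of its 4 libraries. A group of 11 fabF unigenes with a hit in *Paulinella*, an amoeba with a photosynthetic organelle, was chosen after its values were seen and gave 15.05% of the sum in CK18 replicate 2, 7.46% in PEG2 replicate 2 and at most 4.75% elsewhere.

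fabG, the 3-oxoacyl-ACP reductase of the elongation round, was the steadiest sum. It ranged from 37.9 in Nacl2 to 65.8 in CK18, and the 2 CK18 libraries alone, 65.8 and 47.4, spanned most of that range. The log2 differences in the 8 comparisons ran from -0.40 to 0.09, and none was called. Its 52 unigenes have 26 different best NR proteins, and only 5 are named chloroplastic. The leading group, 7 unigenes with Cluster-31803.91859 at its head, was 34.6 and 43.1 in CK0, 39.7 and 20.7 in CK18 and 22.5 to 32.3 in the treated libraries. A group of 3 unigenes led by Cluster-31803.9575, chosen after its values were seen, was 3.65 and 3.91 in CK0, 12.8 and 9.29 in CK18, 16.4 and 16.5 in Nacl1, 11.3 and 12.9 in Nacl2, 19.3 and 25.0 in PEG1, and 6.37 and 18.5 in PEG2. Cluster-31803.9575 itself rose from CK0 to CK18 (log2 1.55, adjusted p = 0.0452), a call lost without CK18 replicate 1. The fabG sum differed by 0.02 in that comparison and did not show this rise.

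fabZ, the dehydratase that removes water from the 3-hydroxyacyl chain, was highest in CK0. Its sum was 81.4 and 108 in CK0, 75.2 and 47.6 in CK18, 43.8 and 49.95 in Nacl1, 57.2 and 61.6 in Nacl2, 30.0 and 28.7 in PEG1, and 19.7 and 41.9 in PEG2. PEG1 and PEG2 lay below CK18 in all libraries. The log2 differences from CK18, -1.05 ± 0.40 in PEG1 (adjusted p = 0.0856) and -1.05 ± 0.40 in PEG2 (adjusted p = 0.219), were not called. Without a PEG2 library the PEG1 difference was called (-1.04 and -1.03, adjusted p = 0.0131 and 0.013), and without PEG2 replicate 2 the PEG2 difference was -1.55 (adjusted p = 0.0223). Nacl2 exceeded PEG2 by 1.04 ± 0.34 (adjusted p = 0.0242), a call lost without PEG2 replicate 1 (0.49, adjusted p = 0.178), Nacl2 replicate 1 (1.10, adjusted p = 0.0712) or Nacl2 replicate 2 (0.9999, adjusted p = 0.103). In the unigene fit Cluster-31803.67167, which leads the sum, was higher in Nacl2 (56.1 and 63.8) than in PEG2 (11.2 and 20.0) by 1.99 ± 0.35 (adjusted p = 0.00455), in all 20 alternatives.

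A short fabZ unigene of 542 bp, Cluster-31803.6190, with its best hit in *Prototheca*, a colourless relative of *Chlorella*, followed another course. It was listed at 0 in CK0, at 0.0497 and 0 in CK18, and was 0.892 and 1.53 in Nacl1, 0.648 and 0.794 in Nacl2, 6.72 and 6.12 in PEG1 and 0.398 and 5.68 in PEG2. All 4 treatments were above CK18 without overlap, with the PEG2 libraries far apart. The calls were up in PEG1 (log2 5.59, adjusted p = 0.0416), Nacl1 (3.34, adjusted p = 0.0321) and Nacl2 (2.74, adjusted p = 0.0193), and these fitted values depend on the 0.1 added before taking logs. They were lost in 8 of 15, 12 of 14 and 6 of 14 alternatives.

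fabI, the enoyl-ACP reductase that closes the elongation round, had the largest difference of any member. Its sum was 1.42 and 1.29 in CK0, 76.0 and 65.0 in CK18, 112 and 108 in Nacl1, 60.05 and 63.1 in Nacl2, 61.5 and 67.9 in PEG1, and 43.7 and 69.3 in PEG2. Every day-18 library was far above both CK0 libraries. The CK18 level was 48.8-fold that of CK0 (log2 5.61 ± 0.32, adjusted p = 1.4e-08, limma), in all 14 alternatives, with values from 4.69 to 5.77. Nacl1 exceeded CK18 by 0.61 ± 0.14 (adjusted p = 0.0105) and Nacl2 was below Nacl1 by -0.76 ± 0.14 (adjusted p = 0.0027), both under the fold limit. With the factors of the unigenes the difference of Nacl2 from Nacl1 was only -0.22 (adjusted p = 0.236, limma). Cluster-31803.103998, a unigene of 1243 bp named chloroplastic, carried the sum, with 1.003 and 1.12 in CK0 and 63.9 and 51.4 in CK18 (log2 5.77, adjusted p = 0.0112). The ratio of fabI to fabZ was 0.0174 and 0.0120 in CK0 and 1.01 to 2.56 on day 18.

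FATA, the thioesterase that frees mainly oleate from ACP in plants, was lower in each treatment. Its sum was 10.4 and 9.44 in CK0, 12.9 and 10.9 in CK18, 5.36 and 7.49 in Nacl1, 2.84 and 1.47 in Nacl2, 0.752 and 1.96 in PEG1, and 3.97 and 4.40 in PEG2. No treated library reached an untreated one. Relative to CK18 the log2 fold change was -3.17 ± 0.46 in PEG1 (adjusted p = 0.00491, limma) and -2.44 ± 0.34 in Nacl2 (adjusted p = 5.4e-04), both called. The differences of -0.93 in Nacl1 (adjusted p = 0.0623) and -1.47 in PEG2 (adjusted p = 0.158) were not called. The Nacl2 call was kept in all 16 alternatives, and the PEG1 call was lost in 1, without CK18 replicate 1 (-3.02, adjusted p = 0.0526).

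Between the strengths, FATA was lower in Nacl2 than in Nacl1 (-1.51 ± 0.34, adjusted p = 0.00747) and higher in PEG2 than in PEG1 (1.70 ± 0.46, adjusted p = 0.0457). The former was lost without Nacl1 replicate 2 (-1.29, adjusted p = 0.0549) or Nacl2 replicate 2 (-1.01, adjusted p = 0.0562) and with the factors of the unigenes (-0.99, adjusted p = 0.0385), and the latter in 9 of 16 alternatives, among them 5 left-out libraries: both of CK18, both of PEG1 and PEG2 replicate 1 (1.10 to 2.34, adjusted p 0.051 to 0.253). The sum rests on 3 unigenes with 1 best NR protein, and Cluster-31803.95664, a fragment of 496 bp, gave 76.6% to 100% of it. Cluster-31803.95664 alone fell by 1.94 on the log2 scale in Nacl2 (adjusted p = 0.0198) and by 3.11 in PEG1 (adjusted p = 0.0281). The former was lost without CK18 replicate 1 or Nacl2 replicate 2, and the latter in 6 of 15 alternatives, among them without either CK18 or either PEG1 library.

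Members with chloroplastic and mitochondrial names were also summed apart, a description with no test. The chloroplastic sum was 86.3 and 114 in CK0, 458 and 360 in CK18, 615 and 601 in Nacl1, 343 and 356 in Nacl2, 532 and 724 in PEG1, and 322 and 387 in PEG2. The mitochondrial sum was 57.6 and 64.3 in CK0, 10.99 and 17.9 in CK18, 15.5 and 12.2 in Nacl1, 26.5 and 25.4 in Nacl2, 21.6 and 26.1 in PEG1, and 27.5 and 24.1 in PEG2. CK0 was the lowest group of the former and the highest of the latter, without overlap with any day-18 library. Most of the mitochondrial sum in CK0 was the fabD group led by Cluster-31803.71595, at 36.3 and 44.5. The mitochondrial fabF group added 17.9 and 18.1, so the sum largely repeats members described above. Main unigenes of accA, fabH, fabG and fabZ with neither word in their names are outside both sums. In the mitochondrial sum, Nacl2, PEG1 and PEG2 were above CK18 and Nacl1. The sum of members with neither word stayed between 169 and 255 in all libraries.

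**Figure D4:**
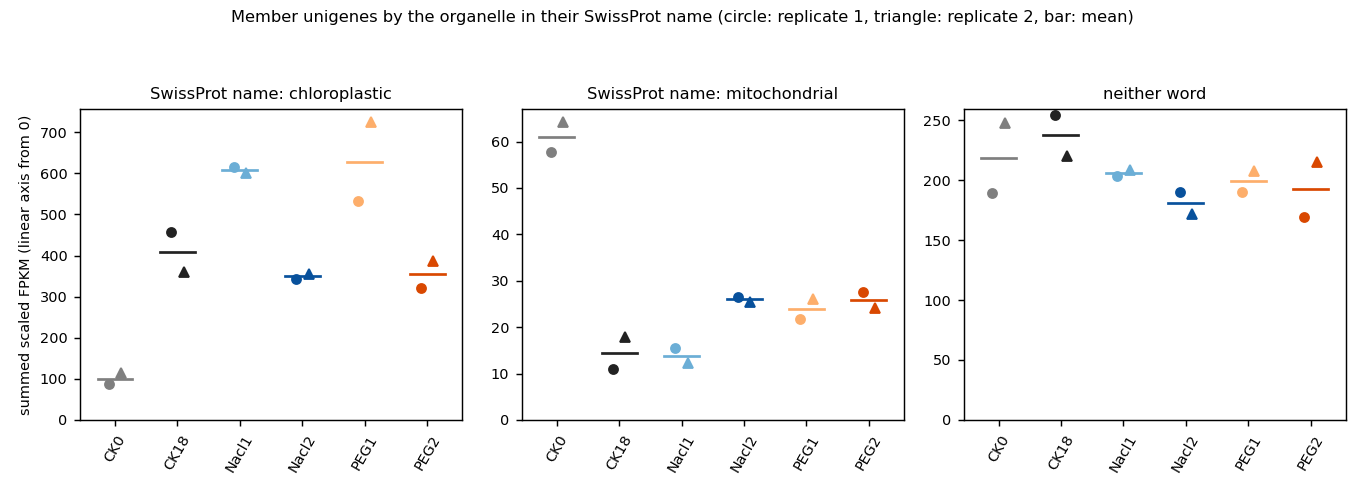
Scaled FPKM of the member unigenes, summed by the organelle named in their SwissProt entry, by library, on linear axes from 0 (circles, replicate 1; triangles, replicate 2; bars, group means). The chloroplastic sum is 86.3 and 114 in CK0 and at least 322 on day 18, and the mitochondrial sum is 57.6 and 64.3 in CK0 and at most 27.5 on day 18.

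Over single unigenes, 71 to 126 of the 215 members passed the filter on low values, depending on the libraries in the fit. A member seen in 1 group only passes through that group, so these counts are a description. Unigenes of 1 KO ID can share a best NR protein, so a count of unigenes is no count of separate genes. Of the 215 members, fabF holds 42, fabD 15, fabH 11, accA 9 and fabI 8. In CK18 vs. CK0, limma called 13 up and 16 down of 71 tested, and 32% of all 65618 unigenes were called (13.7% up, 18.3% down). Of the members that fell, 6 were fabD and 5 fabF unigenes, and of those that rose, 3 were accA, 3 fabH and 2 fabI. This tally fell from 29 calls to 1 without CK18 replicate 1, 8 without CK0 replicate 1, and 9 without CK0 replicate 2 or CK18 replicate 2, and with FPKM as deposited it was 9 up and 21 down. In Nacl1 vs. CK18, 8 rose and 2 fell of 87 (all unigenes 9.02%, with 4.46% up and 4.56% down). In Nacl2 vs. CK18, 19 rose and 6 fell of 87 (all unigenes 35.3%, with 22.4% up and 12.9% down). Of the 19, 10 were fabF unigenes, all in the KAS I, KAS II or mitochondrial groups described above, so they are not separate rises. In PEG1 vs. CK18, 10 rose and 2 fell of 90 (all unigenes 14.2%, with 9.49% up and 4.69% down). In PEG2 vs. CK18 limma called 0 of 90, with 12 at an unadjusted p under 0.05, and 0% of all unigenes.

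Between the treatments, 11 member unigenes rose and 2 fell in Nacl2 vs. Nacl1 (all unigenes 22.6%, with 14.6% up and 7.94% down), 0 rose and 6 fell in PEG2 vs. PEG1 (all unigenes 7.89%, with 1.93% up and 5.96% down), and 13 rose and 6 fell in Nacl2 vs. PEG2 (all unigenes 21.5%, with 12.7% up and 8.73% down). With the factors of the KO sums the splits were 13 up and 7 down in Nacl2 vs. CK18, 4 up and 5 down in Nacl2 vs. Nacl1 and 8 up and 6 down in Nacl2 vs. PEG2. Quantile normalization gave 7 up and 3 down in Nacl2 vs. Nacl1, 14 up and 10 down in Nacl2 vs. PEG2 and 4 up and 3 down in PEG1 vs. CK18. FPKM as deposited gave 5 up and 5 down in Nacl2 vs. Nacl1. These counts depended on single libraries: without any 1 of the CK18 or PEG1 libraries, 0 member unigenes were called in PEG1 vs. CK18, and 0 or 1 were called in Nacl1 vs. CK18 without any 1 of the 6 libraries of its fit. In PEG2 vs. PEG1, 0 were called without any 1 of the 6 libraries of that fit. Several calls were of unigenes with a hit outside the green algae and low values, such as the accD unigene Cluster-8989.0, chosen after its values were seen, which was at most 1.10 in any library and was lower in Nacl2 than in PEG2 (log2 -3.28, adjusted p = 0.00524).

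Of 19 other KO IDs around the pathway, 13 were carried by a unigene and tested. They include the carbon supply to acetyl-CoA, the biotin and lipoate enzymes and the enzymes that use the acyl chain. With age, the pyruvate dehydrogenase subunits PDHA and PDHB, which make acetyl-CoA from pyruvate, rose in CK18 vs. CK0 (log2 1.02, adjusted p = 0.00362, and 1.34, adjusted p = 5.4e-04), as did the stearoyl-ACP desaturase SAD, which acts on the product of KAS II (1.87, adjusted p = 9.0e-05). The acetyl-CoA synthetase ACSS (-1.75) and the malonyl-CoA synthetase ACSF3 (-1.95), which activates malonate in mitochondria of plants and mammals, fell. That is 3 up and 2 down of 13, against 25.7% up and 24.9% down of all KO sums.

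Under low salt, 4 of the 13 rose and 1 fell, against 10.7% up and 8.63% down of all KO sums. The E2 subunit of pyruvate dehydrogenase, DLAT, rose by 1.25, the biotin synthase bioB by 1.14, the lipoyl transferase lipB by 1.68 and ACSF3 by 1.498, and the ATP citrate lyase ACLY, which makes cytosolic acetyl-CoA, fell by 1.17 on the log2 scale (adjusted p from 3.5e-04 to 0.0118). The bioB sum was 63.0 and 72.8 in CK18 and 154 and 152 in Nacl1. A link to the rise of accC was not tested. Under high salt 3 of 13 rose, ACSS, lipB and ACSF3, against 25.4% of all KO sums. In PEG1 (10.6% of all KO sums up, 12.1% down), DLAT and ACSF3 rose and ACLY (-2.16), the mitochondrial enoyl reductase MECR (-1.61) and the long-chain acyl-CoA synthetase ACSL (-1.57) fell. In PEG2, where 0.486% of all KO sums were up, 1 rose, ACSS, from 1914 and 2756 in CK18 to 11282 and 18196 (log2 2.65, adjusted p = 0.0211).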

How the data were processed

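RNA-seq of 12 libraries, 2 for each of 6 groups as the sample labels give them, was analysed. The authors built transcripts de novo with Trinity after read filtering, joined them into unigenes with Corset and quantified them through Bowtie 2 alignments and RSEM. They deposited FPKM per unigene, rounded to 2 decimals, and a table of KO, NR and SwissProt annotations. These are no counts, and read depth per unigene is unknown. No genome build applies to the assembly, and no coordinates are given.

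FPKM were summed by KO ID and analysed in R 4.3.3, using limma 3.58.1 for the tests and the data.table package (1.17.8) for reading. Values were divided by median-ratio library factors, 0.1 was added and log2 was taken. KO sums or unigenes that did not reach 0.3 FPKM in 2 or more libraries of a fit were dropped from it. The limma test used an intensity trend, was two-sided and was adjusted by Benjamini-Hochberg over all units tested, separately for KO sums and unigenes, where the study had tested read counts, which were not used here. The fits held CK18, Nacl1 and Nacl2; CK18, PEG1 and PEG2; CK0 and CK18; and all 12 libraries for Nacl2 vs. PEG2. The test was checked on simulated data with normal noise, where changes were planted only in units with a mean FPKM of at least 1. That check therefore says nothing on weakly expressed unigenes, and it does not support single calls.

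Named unigenes are those in the study's table of fatty acid genes, the one with the highest mean FPKM of each KO ID, and for each comparison the 3 largest increases and decreases among called members whose higher group had a mean FPKM of 5 or more and whose groups did not overlap. Others are named as chosen after their values were seen. Members and lists were chosen with earlier results of these data known. Levels printed for KO sums and unigenes use factors over all 12 libraries. Alternatives were other pseudocounts, filters, scalings, libraries in the fit, the replicate number as a block, green algal unigenes only, and each library left out. The factors of the KO sums for unigenes were added after the data were seen. Replicate numbers were not taken to pair libraries. Differences between replicates of 2 groups correlated at -0.19 to 0.43 over 15 pairs of groups (median -0.002). These values cannot show whether some groups shared a batch.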

Additional observations from a re-analysis of the deposited data

How the results depend on the processing

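With 2 libraries per group the fits of 6 libraries have 3 residual degrees of freedom and the fit of CK0 and CK18 has 2, and the calls of single unigenes rest on few libraries. Read depth is unknown, so no limit of detection can be given. Counts below are of called members, for KO sums and for unigenes.

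With FPKM as deposited, KO sums called were 4 for each salt treatment vs. CK18 and 5 in Nacl2 vs. PEG2, and unigenes 18 in Nacl1 vs. CK18. With all 12 libraries in 1 fit, KO sums were 1 in Nacl1 and 1 in Nacl2 vs. CK18, and unigenes 4 in Nacl1, 20 in PEG1 and 1 in PEG2 vs. CK18 and 14 in PEG2 vs. PEG1. Quantile normalization gave 2 KO sums in Nacl2 vs. PEG2 and 4 in Nacl1 vs. CK18, and 19 unigenes in CK18 vs. CK0, 7 in PEG1 vs. CK18 and 1 in PEG2 vs. PEG1. The factors of the unigenes gave 4 KO sums in Nacl2 vs. CK18, 3 in Nacl2 vs. PEG2 and 2 in PEG2 vs. PEG1. Green algal unigenes alone gave 3 in Nacl2 vs. PEG2 and 2 in PEG2 vs. PEG1, and turned accD in Nacl2 vs. PEG2 from -0.10 to 2.26, as the red algal unigenes are then left out.

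A mean FPKM of at least 1, which leaves fewer unigenes, gave 2 KO sums in Nacl2 vs. PEG2, and 16 unigenes in CK18 vs. CK0, 6 in Nacl1, 7 in Nacl2 and 4 in PEG1 vs. CK18, 6 in Nacl2 vs. Nacl1, 7 in Nacl2 vs. PEG2 and 0 in PEG2 vs. PEG1. A pseudocount of 0.01 gave 2 KO sums in PEG2 vs. PEG1, and 7 unigenes in Nacl2 vs. Nacl1 and 1 in PEG2 vs. CK18. A pseudocount of 1 gave 19 unigenes in CK18 vs. CK0, 6 in Nacl1, 14 in Nacl2 and 4 in PEG1 vs. CK18 and 0 in PEG2 vs. PEG1. No filter gave 3 unigenes in CK18 vs. CK0, 3 in Nacl1 and 0 in PEG1 vs. CK18, 5 in Nacl2 vs. Nacl1 and 0 in PEG2 vs. PEG1. The cause of these differences was not tested.

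The replicate block gave 1 unigene in Nacl1 and 0 in PEG1 vs. CK18, 4 in Nacl2 vs. Nacl1 and 0 in PEG2 vs. PEG1, while it left the counts of KO sums at 6 in CK18 vs. CK0, 2 in Nacl1, 2 in Nacl2, 2 in PEG1 and 0 in PEG2 vs. CK18, 3 in Nacl2 vs. Nacl1, 4 in PEG2 vs. PEG1 and 1 in Nacl2 vs. PEG2. The libraries share a number, and no pairing by it is stated in the labels.

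With 1 library left out, KO sums ranged from 4 to 6 in CK18 vs. CK0, 2 to 4 in Nacl1, 2 to 3 in Nacl2, 0 to 4 in PEG1 and 0 to 2 in PEG2 vs. CK18, 1 to 4 in Nacl2 vs. Nacl1, 0 to 3 in PEG2 vs. PEG1 and 0 to 3 in Nacl2 vs. PEG2. Unigenes ranged from 1 to 9 in CK18 vs. CK0, 0 to 1 in Nacl1, 4 to 26 in Nacl2, 0 to 17 in PEG1 and 0 to 0 in PEG2 vs. CK18, 0 to 12 in Nacl2 vs. Nacl1, 0 to 0 in PEG2 vs. PEG1 and 6 to 20 in Nacl2 vs. PEG2.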

Other observations

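The carriers of the pathway have no member KO ID and were found by their SwissProt names after values had been seen. Acyl carrier protein (ACP) holds the growing chain. The sum of 7 ACP unigenes not named mitochondrial was 23.9 and 26.8 in CK0, 237 and 154 in CK18, 209 and 228 in Nacl1, 70.6 and 71.6 in Nacl2, 302 and 347 in PEG1, and 180 and 172 in PEG2. Every day-18 library was above CK0, and PEG1 was the highest group. The leading ACP unigene, Cluster-31803.25981, rose in CK18 vs. CK0 by 3.20 ± 0.34 on the log2 scale (adjusted p = 0.0141, limma) and was lower in Nacl2 than in Nacl1 (-1.003, adjusted p = 0.0421). The sum of 3 unigenes named mitochondrial ACP was 211 and 226 in CK0, 84.0 and 113 in CK18, 100.3 and 110.1 in Nacl1, 235 and 210.2 in Nacl2, 68.9 and 66.9 in PEG1, and 201 and 134 in PEG2. Its leading unigene, Cluster-31803.54485, carries K03955, a KO ID outside the rule, so its changes may not belong to fatty acid synthesis alone. That unigene fell with age (-1.26 ± 0.26, adjusted p = 0.0312, limma) and rose in Nacl2 over CK18 (1.96 ± 0.17, adjusted p = 0.00241).

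The biotin carboxyl carrier protein (BCCP), the subunit that carries biotin between accC and the carboxyltransferase, was named for 7 unigenes. Their sum was 10.52 and 18.96 in CK0, 47.6 and 46.4 in CK18, 43.9 and 50.6 in Nacl1, 23.3 and 31.3 in Nacl2, 45.1 and 47.9 in PEG1, and 22.2 and 32.8 in PEG2. Within it the unigenes differed. Cluster-31803.78413 was 0.659 and 0.661 in CK18 and rose to 13.2 and 28.02 in Nacl1 (log2 4.67, adjusted p = 0.0134), 8.38 and 13.2 in Nacl2 (3.85, adjusted p = 0.00428) and 24.3 and 30.2 in PEG1 (5.11, adjusted p = 0.022). Cluster-31803.78422 was 34.0 and 29.6 in CK18 and 14.3 and 10.0 in PEG1 (-1.43, adjusted p = 0.051, not called). The BCCP sums of Nacl1 and PEG1 lay between 43.9 and 50.6, around those of CK18. Single carrier unigenes were scaled by the factors of the unigenes, so their changes in Nacl2 are not relative to all KO sums. The carriers were not run under the alternatives.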
